A study of Eurytemora affinis with 4 samples.

Results

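Isoform-rich loci of the copepod *Eurytemora affinis* are described here in adult males and adult females. An isoform-rich locus is a transcribed locus on a contig named Scaffold for which the authors' Cuffdiff isoform table lists 5 or more isoforms, and 494 of the 61573 loci on such contigs met that rule. They hold 2929 of the 70824 isoforms in the table, which is 4.14%. *Eurytemora affinis* is a small planktonic crustacean of estuaries and coastal waters. Poly(A) RNA of whole-animal homogenates from culture was sequenced, with strand kept by the dUTP method, in 2 male and 2 female libraries. Both sexes were adult, were raised at 13 °C, 15 PSU of salinity and 15 h of light with 9 h of darkness, were kept apart for the last 2 days, and had their guts cleared with 6.0 µm beads during a final fast of 24 h. How many animals went into a library is not stated in the labels.

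Isoforms are alternative transcripts of a locus, which arise when exons are joined in different combinations, when transcription starts at another promoter, or when the transcript ends at another poly(A) site. Sex-specific splicing is known from insects, where the sex determination genes Sex-lethal, transformer and doublesex of Drosophila melanogaster are textbook cases. Reads shorter than a transcript often match several isoforms of a locus, so that isoform levels are estimates by a model, whereas the level of the locus as a whole depends less on that division. The isoforms here carry assembly names (CUFF, followed by a locus and an isoform number), and the files pair no gene names with them, so that no function is given for any locus.

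The values of each sex are the authors' pooled FPKM, fragment numbers corrected for transcript length and library size, with 1 value per sex. There is no spread between replicates, depth per library is unknown, and differences of FPKM between the sexes have no test of their own here. Calls are those of the authors, at an adjusted p under 0.05, from Cuffdiff and from edgeR in its gene map mode. Both tools were run on the same 4 libraries, so that a call by both is no independent support. The labels do not say whether the libraries of a sex came from separate cultures, and the authors' p-values then measure the spread between these libraries, which may be technical. In whole-animal RNA, fewer cells of a type and less RNA per cell cannot be told apart.

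Most isoform-rich loci sat close to the lower limit of the rule. There were 263 loci with 5 isoforms, 113 with 6 and 59 with 7, while 59 loci had 8 or more and 10 loci had 10 or more. The highest number was 13. The loci were spread over 285 scaffolds, with 9 on Scaffold2, 8 on Scaffold15 and 7 on Scaffold37. Their genomic span had a median of 16325 bases, against 9139.5 bases for the 4368 loci of 2 to 4 isoforms and 3368 bases for the 56711 loci of 1 isoform. Span grew with the number of isoforms, as the median was 13893 bases at 5 isoforms and 23221 bases at 8 or more. The same span was listed for another locus in 187 of the 494 (37.9%), a share close to the 38.8% of loci of 2 to 4 isoforms and the 40.6% of loci of 1 isoform. How reads were assigned among such loci is not recorded in the tables, so that the values of these 187 are uncertain.

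**Figure D1:**
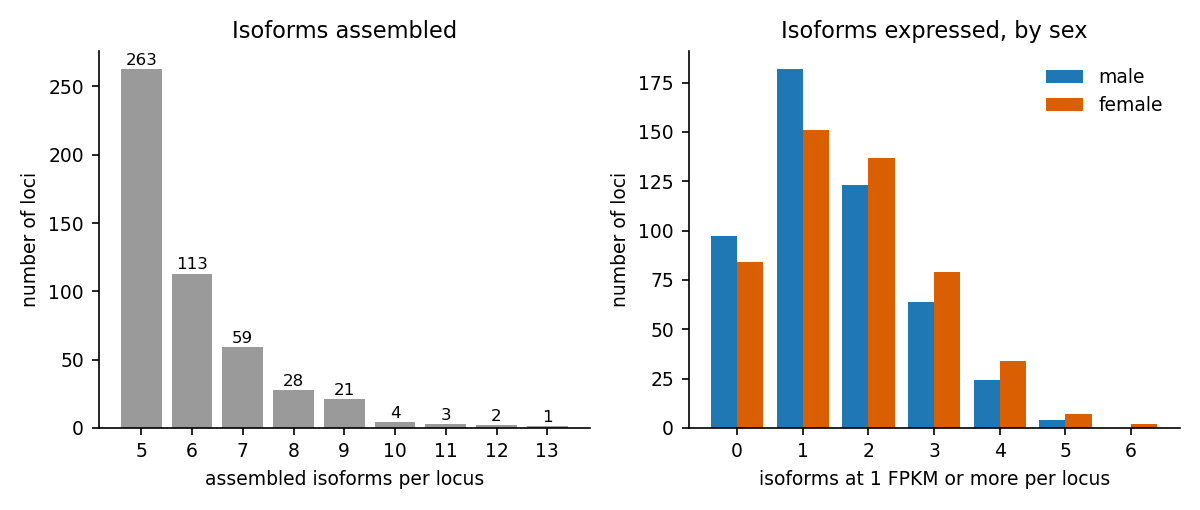
Left, number of isoform-rich loci by the number of isoforms assembled at the locus; right, number of loci by the number of isoforms at 1 FPKM or more, with males in blue and females in orange. Most loci were assembled with 5 or 6 isoforms, but the largest class in either sex expressed 1 isoform at that level, with 182 loci in males and 151 in females.

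By FPKM, a minority of the assembled isoforms reached 1 FPKM. Of the 2929 isoforms, 943 (32.2%) reached 1 FPKM in at least 1 sex and 638 reached it in both. There were 736 isoforms at 1 FPKM or more in males and 845 in females. Another 659 isoforms (22.5%) were listed at 0 in both sexes, and an FPKM of exactly 0 can be a failed estimate. The edgeR comparison listed 2325 of the 2929 isoforms, and 20.5% of those listed were at 0 FPKM in both sexes. A low FPKM is thus no proof that an isoform was not expressed. Per locus, the median number of isoforms at 1 FPKM or more was 1 in males and 2 in females, with means of 1.49 in males and 1.71 in females. At least 2 isoforms reached that level at 215 loci in males (43.5%) and at 259 loci in females (52.4%). The male count was the larger at 61 loci, the female count at 142, and they were equal at 291. The summed FPKM of these loci was also higher in females, as described next, and its part in the count was not tested. At 66 loci no isoform reached 1 FPKM in either sex.

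Summed over isoforms, the isoform-rich loci were lower in males at 353 of 494 loci and higher in males at 141. The summed level in males had a median of 5.23 FPKM, with quartiles of 2.02 and 11.7 and a range of 0.0338 to 134. The summed level in females had a median of 7.75 FPKM, with quartiles of 2.66 and 17.5 and a range of 0.0126 to 99.5. At 410 loci the sum reached 1 FPKM in both sexes, and these are called measurable. Over the measurable loci the median log2 ratio of males over females was -0.55, with quartiles of -1.01 and -0.05, and 319 of 410 (77.8%) were lower in males. Over all 14596 loci of the table at 1 FPKM or more in both sexes the median was -0.16, and 55.7% of those on scaffolds were lower in males. The lean was graded up to 5 isoforms. Medians were -0.11 at 1 isoform, -0.21 at 2, -0.29 at 3, -0.37 at 4 and -0.54 at 5. For 2 to 4 isoforms together the median was -0.28. Beyond 5 isoforms it changed little, with -0.58 at 6, -0.56 at 7 and -0.56 at 8 or more. These differences were not tested.

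The authors' calls leaned the same way. Of 484 isoform-rich loci that Cuffdiff tested, 21 were called male-biased (4.34%, 95% Clopper-Pearson interval 2.71% to 6.56%), against 7.06% of all loci tested. Another 112 were called female-biased (23.1%, interval 19.5% to 27.2%), against 10.4% of all loci tested. These intervals cover counting over loci only. By number of isoforms, the female-biased share by Cuffdiff was 12.5% at 2, 17.4% at 3 and 18.5% at 4, just outside the rule. Inside the rule it was 24.6% at 5, 23.9% at 6, 19.0% at 7 and 19.3% at 8 or more. In the edgeR comparison, 40 of 493 isoform-rich loci were male-biased (8.11%), against 8.4% of all loci, and 119 were female-biased (24.1%), against 9.58%. Both tools called 18 loci male-biased, which is 18 of the 21 of Cuffdiff and of the 40 of edgeR. They called 84 female-biased, of the 112 of Cuffdiff and the 119 of edgeR, and none in opposite directions (0 loci). The share of all loci called by both tools is not given here, so that whether this overlap is usual cannot be told. The authors' deposited intersection of all 3 methods held 30 of the 493 loci in the edgeR table (6.09%), against 3.59% of all loci there. It held 8 of the 493 as male-biased (1.62%), close to the 1.44% of all loci, and 22 as female-biased (4.46%), against 2.15%.

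Level differs between the classes, so the calls were also set side by side at similar levels. With 2 to 5 FPKM in the lower sex, Cuffdiff called 24.1% of 112 isoform-rich loci female-biased, and 24.0% of 732 loci of 2 to 4 isoforms. With 5 to 10 FPKM the shares were 28.8% of 104 and 23.2% of 414, with 10 to 20 FPKM 23.4% of 77 and 19.8% of 288, and with 20 FPKM or more 21.1% of 57 and 14.4% of 174. At 1 to 2 FPKM they were 32.8% of 58 and 16.5% of 526. The female-biased share was thus higher at isoform-rich loci at 4 of the 5 levels and nearly equal at 2 to 5 FPKM, again with no test. The male-biased share was lower at isoform-rich loci at each of the 5 levels. It was 3.45% against 6.27% at 1 to 2 FPKM, 4.46% against 5.60% at 2 to 5 and 0.962% against 4.35% at 5 to 10. At 10 to 20 FPKM it was 0% against 5.21%, and at 20 FPKM or more 3.51% against 5.75%. The isoform-rich counts behind these shares were 2, 5, 1, 0 and 2 loci.

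**Figure D2:**
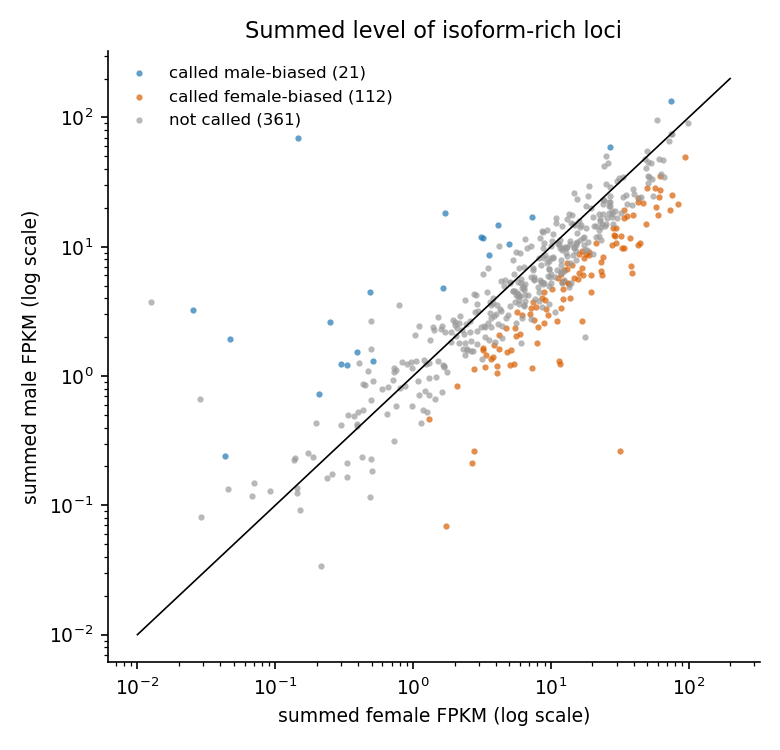
Summed FPKM of the 494 isoform-rich loci, with males on the vertical axis and females on the horizontal axis, both on a log scale; the line marks equal levels. Blue points are the 21 loci that Cuffdiff called male-biased, orange points the 112 called female-biased, and grey points the others; most grey points also lie under the line.

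Among the called loci the strongest male bias was at GENE_0103895 on Scaffold144, bases 671989 to 686970, with 69.2 FPKM in males and 0.147 FPKM in females. Its log2 fold change was 8.88 by Cuffdiff (adjusted p = 0.00909) and 8.10 by edgeR (adjusted p = 5.21e-37) in the authors' deposited tables. A single isoform, CUFF.12431.10, carried 67.4 FPKM in males, or 97.4% of the male sum, and 0.0578 FPKM in females. Cuffdiff did not call that isoform in the authors' deposited table (adjusted p = 0.477), and the edgeR comparison does not list it. There CUFF.12431.9 and CUFF.12431.3, both listed at 0 FPKM in males, had log2 fold changes of 8.67 and 8.53 and were called male-biased. The span of GENE_0103895 is shared with 3 other loci, so that its level is uncertain. GENE_0104039 on Scaffold82, bases 151745 to 169914, had 3.27 FPKM in males and 0.0253 FPKM in females, and GENE_0001500 on Scaffold119, bases 997956 to 1004302, had 1.93 FPKM in males and 0.0468 FPKM in females. In the authors' deposited tables their log2 fold changes by Cuffdiff were 7.01 and 5.37, and both were male-biased by edgeR too. Each shares its span with 1 other locus.

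The strongest female bias was at GENE_0104498 on Scaffold311, bases 446284 to 458722, with 0.264 FPKM in males and 31.6 FPKM in females. The log2 fold change there was -6.90 by Cuffdiff (adjusted p = 0.000859) and -6.45 by edgeR (adjusted p = 6.53e-45) in the authors' deposited tables. Its leading isoform CUFF.41844.5 had 0.161 FPKM in males and 23.9 FPKM in females, and the next, CUFF.41844.4, had 0.0871 FPKM in males and 6.68 FPKM in females. Both isoforms were called female-biased by both tools in the authors' deposited tables. The share of CUFF.41844.5 was 60.9% in males and 75.7% in females. GENE_0103229 on Scaffold398, bases 1280 to 20503, had 0.0694 FPKM in males and 1.75 FPKM in females, and GENE_0104679 on Scaffold548, bases 8379 to 30947, had 0.211 FPKM in males and 2.70 FPKM in females. Their log2 fold changes by Cuffdiff were -4.65 and -3.68 in the authors' deposited table, and GENE_0104679 shares its span with 2 other loci.

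Within a locus, expression was concentrated on a leading isoform, defined as the isoform with the highest FPKM in a sex. Its share of the locus had a median of 70.0% in males (quartiles 53.6% and 86.5%) and of 70.3% in females (quartiles 56.3% and 87.2%) over the 410 measurable loci. The leading share was above 90% at 81 loci in males and 86 in females, and at 60 loci in both sexes. It was below 50% at 69 loci in males and 57 in females. The effective number of isoforms, the exponential of the Shannon entropy of the shares, had a median of 2.06 in males and 2.11 in females. A value of 2 is what a pair of equal isoforms would give. Among loci of 2 to 4 isoforms the leading share had a median of 91.6% in males and 92.7% in females. The leading share was lower at loci with more isoforms, with medians of 82.5% in males and 85.0% in females at 4 isoforms, just outside the rule, 75.9% in males and 72.8% in females at 5, just inside it, and 57.5% in males and 61.3% in females at 8 or more.

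The most abundant isoform-rich loci kept much the same balance in both sexes by FPKM. GENE_0018949 on Scaffold69, bases 8966 to 20400, had the highest sum, with 134 FPKM in males and 74.7 FPKM in females, and its isoform CUFF.75342.6 held 99.7% in males and 98.2% in females. GENE_0002653 on Scaffold15, bases 501981 to 529430, summed to 91.4 FPKM in males and 99.5 FPKM in females. It was shared by a pair of isoforms, CUFF.13305.1 with 51.1 FPKM in males and 58.6 FPKM in females, and CUFF.13305.4 with 38.8 FPKM in males and 35.7 FPKM in females. The share of CUFF.13305.1 was thus 55.9% in males and 58.9% in females. GENE_0007124 on Scaffold252, bases 265298 to 276984, summed to 95.2 FPKM in males and 58.8 FPKM in females, with CUFF.32596.8 at 75.4% in males and 74.7% in females. GENE_0103589 on Scaffold473 had 75.0 FPKM in males and 76.4 FPKM in females, and GENE_0008936 on Scaffold46 had 75.1 FPKM in males and 74.6 FPKM in females. Their leading isoforms held 72.0% in males and 77.9% in females at GENE_0103589, and 80.9% in males and 77.5% in females at GENE_0008936. Of these 5 loci, Cuffdiff called GENE_0018949 male-biased in the authors' deposited table, with a log2 fold change of 0.85 and an adjusted p of 0.0428, and edgeR called GENE_0007124, with 0.75 and 0.01996. Among their isoforms, edgeR called CUFF.13305.4 male-biased (log2 fold change 1.11) but not CUFF.13305.1 (0.17) in the authors' deposited table. It also called CUFF.32596.1 male-biased (1.28), with 1.04 FPKM in males and 1.02 FPKM in females, but not CUFF.32596.8 (-0.02). At GENE_0008936 it called CUFF.58377.10 and CUFF.58377.1 male-biased. At GENE_0018949 and GENE_0103589 it called no isoform.

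The 3 loci of smallest share difference with at least 10 FPKM in both sexes could still differ in level. At GENE_0103776 on Scaffold15, bases 2085574 to 2091377, CUFF.13547.5 held 99.0% in males and 99.2% in females, while the sum was 20.4 FPKM in males and 58.1 FPKM in females. The log2 fold change of that locus was -1.51 by Cuffdiff and -1.30 by edgeR in the authors' deposited tables, and both called it female-biased. At GENE_0006777 on Scaffold636, bases 67612 to 90678, CUFF.72462.7 held 99.8% in males and 99.7% in females, with sums of 49.2 FPKM in males and 94.4 FPKM in females, and both tools called the locus female-biased. GENE_0016680 on Scaffold496 was called by neither tool, with 23.1 FPKM in males and 24.1 FPKM in females and a leading share of 98.1% in males and 98.3% in females. GENE_0018949, GENE_0006777 and GENE_0016680 each share their span with 1 other locus.

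The difference in balance between the sexes was measured as the share difference, the percentage points of share that would have to pass from some isoforms to others to turn the female shares into the male ones. It is 0 or more by construction, so that any error of the estimates adds to it. Over the measurable loci it had a median of 12.8 points, with quartiles of 5.02 and 26.4 and a highest value of 86.3. It was under 10 points at 173 loci, 25 points or more at 111 and 50 points or more at 34. The median was 3.89 points for loci of 2 to 4 isoforms, and it was 7.48 points at 4 isoforms and 12.8 points at 5. It was smaller at abundant loci, with a median of 15.8 points where the lower sex had 1 to 2 FPKM, 16.2 at 2 to 5, 12.6 at 5 to 10, 11.2 at 10 to 20 and 6.33 at 20 FPKM or more. Loci of 2 to 4 isoforms had 6.14, 4.80, 3.75, 2.52 and 1.37 points at the same levels, lower at each of the 5 levels. The part of estimation error in the share difference was not tested, as the tables hold no value per library.

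**Figure D3:**
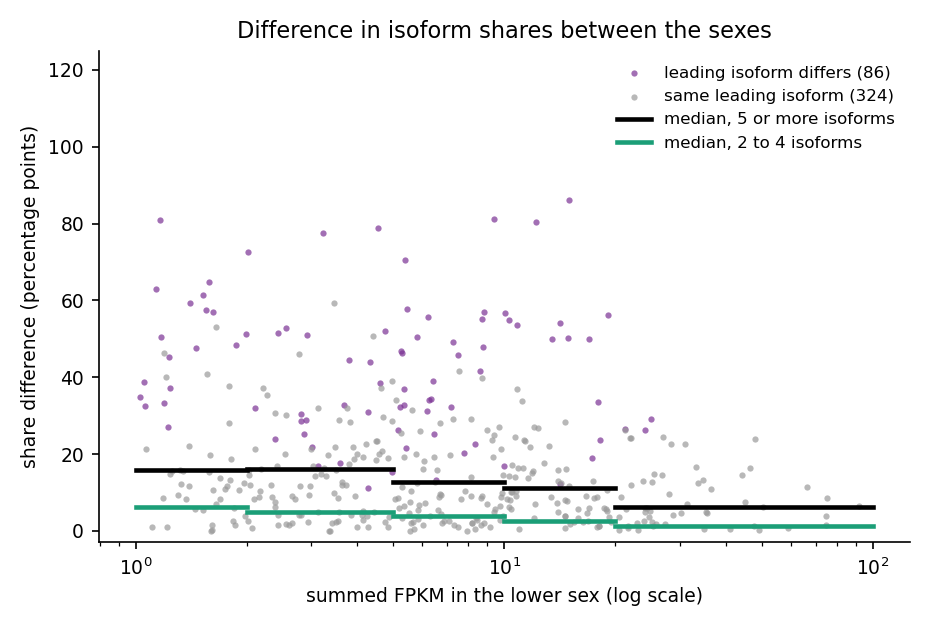
Share difference between males and females against the summed FPKM of the sex with the lower level, for the 410 measurable isoform-rich loci, on a log axis; purple points are the 86 loci whose leading isoform differs and grey points the 324 whose leading isoform is the same. Black bars give the median of the isoform-rich loci in 5 classes of level, 15.8 points at the lowest level and 6.33 at the highest, and green bars that of loci of 2 to 4 isoforms, 6.14 and 1.37 points at the same levels.

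The leading isoform differed between males and females at 86 of the 410 measurable loci (21.0%, 95% Clopper-Pearson interval 17.1% to 25.2%, counting over loci only). The corresponding count was 223 of 2136 (10.4%) for loci of 2 to 4 isoforms. It was 12.0% at 4 isoforms, 23.2% at 5, 14.7% at 6, 23.5% at 7 and 21.1% at 8 or more. By level of the lower sex the share was 31.0% at 1 to 2 FPKM, 20.5% at 2 to 5, 26.7% at 5 to 10, 17.9% at 10 to 20 and 5.26%, or 3 loci, at 20 FPKM or more. Loci of 2 to 4 isoforms had 13.5%, 11.6%, 11.1%, 4.86% and 4.0% at the same levels, so that the classes were close at the highest level. The median share difference was 42.8 points at these 86 loci and 9.03 points at the 324 others. Many of the changes were narrow, since at 39 loci (9.51% of the measurable) each sex's leading isoform was at least 1.5 times as abundant there as the leading isoform of the other sex, and at 8 loci at least 5 times. Of the 85 tested as loci, Cuffdiff called 2 male-biased (2.35%), against 4.34% of the isoform-rich and 7.06% of all loci, and 28 female-biased (32.9%), against 23.1% and 10.4%.

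Of the leading isoforms at these 86 loci, Cuffdiff called 13 of 170 tested (7.65%), against 15.0% of all isoforms tested, and edgeR called 31 of 140 listed (22.1%), against 12.3%. Over the isoforms of all isoform-rich loci, Cuffdiff called 100 of 1519 tested (6.58%) and edgeR called 330 of 2325 listed. These leading isoforms were chosen by their FPKM in the same libraries, so that the shares are a description. Cuffdiff called a leading isoform at 13 of the loci and edgeR at 28. Cuffdiff called both leading isoforms at 0, or at 3 by an unadjusted p under 0.05, and edgeR called both at 3. Both leading isoforms stood in the edgeR table at 57 loci. There the male leading isoform had the higher edgeR log2 fold change at 39 loci and the lower at 18. At 1 locus, GENE_0103389, edgeR called the male leading isoform male-biased and the female leading isoform female-biased.

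GENE_0103389 on Scaffold15, bases 897420 to 905188, also had the largest share difference of the measurable loci, 86.3 points. Its isoform CUFF.13353.3 had 10.4 FPKM in males, or 69.5% of the sum, and 0.728 FPKM in females, or 1.5%. CUFF.13353.4 had 1.63 FPKM in males, or 10.8%, and 46.6 FPKM in females, or 95.7%. In the authors' deposited edgeR table the log2 fold change was 5.97 for CUFF.13353.3 and -2.34 for CUFF.13353.4. In the authors' deposited Cuffdiff table these were 3.84 and -4.84, and neither was called, with adjusted p values of 0.448 and 0.447. The locus as a whole had 15.0 FPKM in males and 48.7 FPKM in females, and both tools called it female-biased. It shares its span with 1 other locus, as do GENE_0034983, GENE_0013870 and GENE_0008531, described next, so that their values are uncertain.

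**Figure D4:**
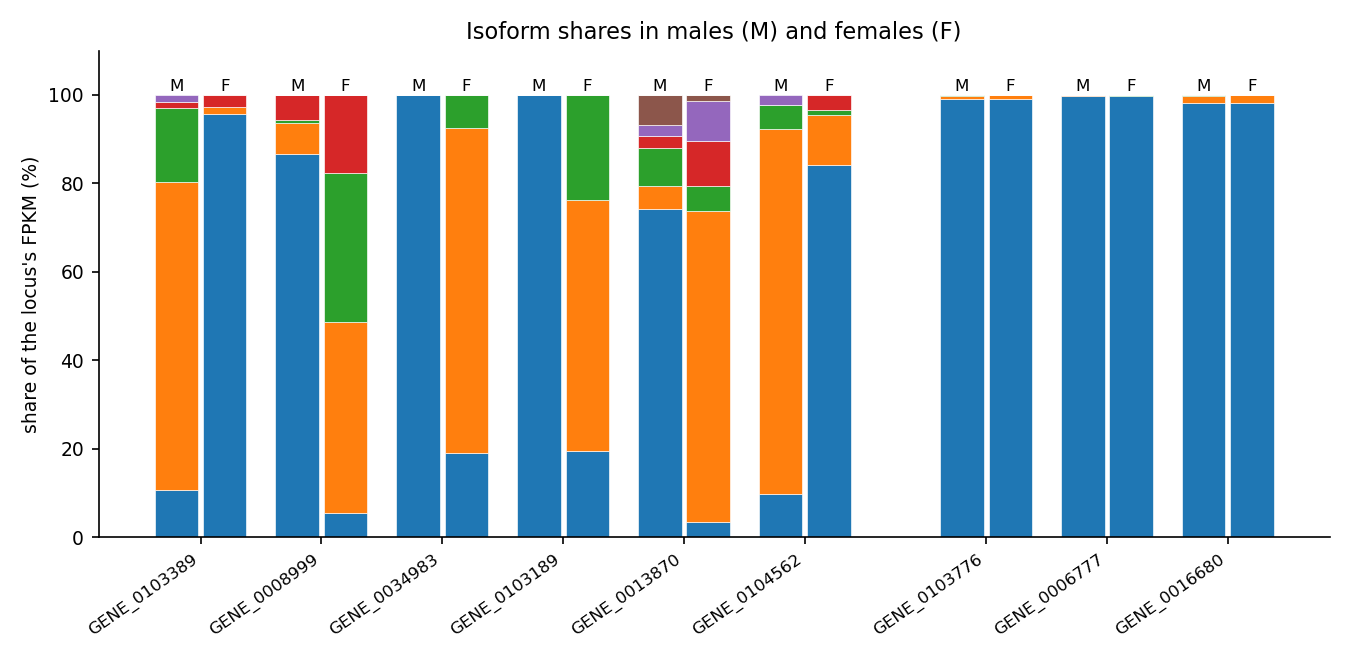
Share of each isoform in the summed FPKM of its locus, in males (M, left bar) and females (F, right bar), for the 6 measurable loci of largest share difference on the left and, on the right, the 3 loci of smallest share difference with at least 10 FPKM in both sexes. Each colour is an isoform within its locus; at GENE_0103389 the isoform in orange holds 69.5% in males and 1.5% in females, whereas at GENE_0103776 the isoform in blue holds 99.0% in males and 99.2% in females.

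At GENE_0104562 on Scaffold55, bases 355378 to 375914, CUFF.66189.9 led in males with 9.57 FPKM, against 0.368 FPKM in females, and CUFF.66189.1 led in females, with 1.14 FPKM in males and 2.71 FPKM in females. The authors' deposited edgeR table gave CUFF.66189.9 a log2 fold change of 4.02, with a call, and CUFF.66189.1 one of -1.74, with none. The locus summed to 11.6 FPKM in males and 3.22 FPKM in females, and Cuffdiff, but not edgeR, called it male-biased. At GENE_0013870 on Scaffold114, bases 917142 to 962658, the sums were close, 4.55 FPKM in males and 5.52 FPKM in females. CUFF.5230.15 had 3.37 FPKM in males and 0.197 FPKM in females there, while CUFF.5230.5 had 0.243 FPKM in males and 3.87 FPKM in females. Cuffdiff in the authors' deposited table gave the first a log2 fold change of 4.10 and the second one of -4.00, with adjusted p values of 0.481 and 0.392 and no call. In the authors' deposited edgeR table the log2 fold changes were 1.38 for CUFF.5230.15 and -0.21 for CUFF.5230.5, and neither was called. The locus was not called by Cuffdiff, but edgeR gave it a log2 fold change of -1.17 (adjusted p = 0.000203) in the authors' deposited table.

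GENE_0034983 on Scaffold75, bases 812378 to 834883, had CUFF.78285.1 at 1.16 FPKM in males and 1.40 FPKM in females, while CUFF.78285.8 was listed at 0 in males and had 5.38 FPKM in females. GENE_0103189 on Scaffold128, bases 451296 to 455563, was alike in form, as CUFF.8416.1 had 12.2 FPKM in males and 5.73 FPKM in females, and CUFF.8416.6 was listed at 0 in males and had 16.5 FPKM in females. Both loci were called female-biased by Cuffdiff in the authors' deposited table. By edgeR GENE_0034983 was called female-biased too, and GENE_0103189 was not (log2 fold change -0.78, adjusted p = 0.107). Cuffdiff called neither CUFF.78285.8 nor CUFF.8416.6, with adjusted p values of 0.321 and 0.231. The edgeR comparison did not call CUFF.78285.8 and does not list CUFF.8416.6. GENE_0008999 on Scaffold5, bases 362549 to 375130, had CUFF.61581.2 at 11.6 FPKM in males and 0.514 FPKM in females, and CUFF.61581.3 at 0.936 FPKM in males and 4.07 FPKM in females. Cuffdiff marked this locus as failed, so that its shares are uncertain, and edgeR gave positive log2 fold changes for both isoforms, 1.92 and 1.37, in the authors' deposited table.

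Of the loci with a different leading isoform, those with the highest level in the lower sex are described next. At GENE_0006301 on Scaffold11, bases 777250 to 786852, CUFF.3991.13 had 17.5 FPKM in males and 7.11 FPKM in females, and CUFF.3991.12 had 11.2 FPKM in males and 15.5 FPKM in females. In the authors' deposited table edgeR gave CUFF.3991.13 a log2 fold change of -0.79 and CUFF.3991.12 one of 0.71, opposite in sign to the FPKM, and neither was called. At GENE_0003361 on Scaffold13, bases 1219325 to 1243239, CUFF.8917.10 had 14.1 FPKM in males and 15.5 FPKM in females, while CUFF.8917.11 had 4.90 FPKM in males and 16.7 FPKM in females. Cuffdiff called CUFF.8917.11 female-biased in the authors' deposited table, with a log2 fold change of -1.77 and an adjusted p of 0.0161. By edgeR that isoform was not called (log2 fold change -1.16, adjusted p = 0.0561) in the authors' deposited table. The locus GENE_0003361 was female-biased by edgeR (adjusted p = 0.0153) but was not called by Cuffdiff (adjusted p = 0.0555) in the authors' deposited tables. At GENE_0008531 on Scaffold3 the leading isoform CUFF.40020.4 of males had 11.1 FPKM in males and 10.5 FPKM in females, and the leading isoform CUFF.40020.7 of females had 4.05 FPKM in males and 14.0 FPKM in females, with no call by Cuffdiff. At GENE_0104385 on Scaffold94, which has 10 isoforms, the leader was CUFF.85077.15 in males, with 6.11 FPKM in males and 6.92 FPKM in females, and CUFF.85077.4 in females, with 4.73 FPKM in males and 11.0 FPKM in females.

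GENE_0004105 on Scaffold251, bases 213167 to 218481, combined a higher level in females with a spread of isoforms in males. The sum was 19.1 FPKM in males and 73.2 FPKM in females. In the authors' deposited tables Cuffdiff called the locus female-biased, and edgeR did not (log2 fold change -0.95, adjusted p = 0.0513). CUFF.32476.8 alone held 25.8% in males and 82.0% in females, with 4.94 FPKM in males and 60.0 FPKM in females. In males 4 isoforms lay between 3.80 and 5.46 FPKM, of which CUFF.32476.6 and CUFF.32476.9 were listed at 0 in females. For CUFF.32476.6 the edgeR log2 fold change was -3.83 (adjusted p = 0.00363) in the authors' deposited table, the opposite direction to its FPKM of 5.46 in males.

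The 4 loci with the most isoforms were not among the 5 of highest level. By class, however, the median summed level was higher at loci with more isoforms. It was 3.92 FPKM in males and 6.01 FPKM in females at 5 isoforms, and 10.5 FPKM in males and 11.9 FPKM in females at 8 or more. GENE_0008280 on Scaffold108, bases 546072 to 576989, had the most, 13, and summed to 1.31 FPKM in males and 1.05 FPKM in females. None of its isoforms reached 1 FPKM in either sex, and 7 were listed at 0 in both sexes. GENE_0001926 on Scaffold225, bases 396934 to 419491, with 12 isoforms, summed to 14.0 FPKM in males and 28.2 FPKM in females, and 4 isoforms reached 1 FPKM in each sex. Its leading isoform CUFF.28287.6 had 6.92 FPKM in males and 16.2 FPKM in females. GENE_0104671 on Scaffold9, bases 2420962 to 2456836, also with 12, was the opposite in level, with 2.61 FPKM in males and 0.251 FPKM in females, and all 3 methods called it male-biased. GENE_0015936 on Scaffold55, bases 1266292 to 1289512, with 11, summed to 34.6 FPKM in males and 66.4 FPKM in females, and 5 isoforms reached 1 FPKM in each sex. GENE_0008280, GENE_0001926 and GENE_0104671 each share their span with 1 other locus, and GENE_0015936 with 3.

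Most isoforms of isoform-rich loci that Cuffdiff called were female-biased, and the share called lay below that over all isoforms, a difference that was not tested. Of the 1519 that Cuffdiff tested, 13 were male-biased (0.856%), against 6.07% of all isoforms tested, and 87 were female-biased (5.73%), against 8.95%. Cuffdiff left 1394 isoforms untested and marked 16 as failed. The 100 called isoforms belonged to 90 loci, 80 with a single called isoform and 10 with a pair. At 75 of these 90 the locus was called too, whereas 58 loci were called without a called isoform. Of the 87 female-biased isoforms 73 were the leading isoform of females, and of the 13 male-biased ones 9 were the leading isoform of males. In the edgeR table, 104 of 2325 isoforms of isoform-rich loci were male-biased (4.47%), against 5.64% of all isoforms, and 226 were female-biased (9.72%), against 6.69%. The intersection of all 3 methods held 13 of the 2325 isoforms (0.559%), against 1.49% of all isoforms in the edgeR table. It held 4 of the 2325 as male-biased (0.172%), against 0.782%, and 9 as female-biased (0.387%), against 0.71%.

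The share called by Cuffdiff was also set side by side among isoforms of like level and fold. With an absolute log2 fold change of 2 or more and 1 to 5 FPKM in the higher sex, 9 of 132 isoforms of isoform-rich loci were called (6.82%), against 85 of 525 (16.2%) at loci of 2 to 4 isoforms and 1094 of 3485 (31.4%) at loci of 1 isoform. At 5 to 20 FPKM the counts were 17 of 52 (32.7%), 62 of 165 (37.6%) and 710 of 1518 (46.8%). At 20 FPKM or more 8 of 10 were called, against 40 of 68 and 597 of 1172. The order at the lower levels did not hold there, where 10 isoforms give little precision.

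**Figure D5:**
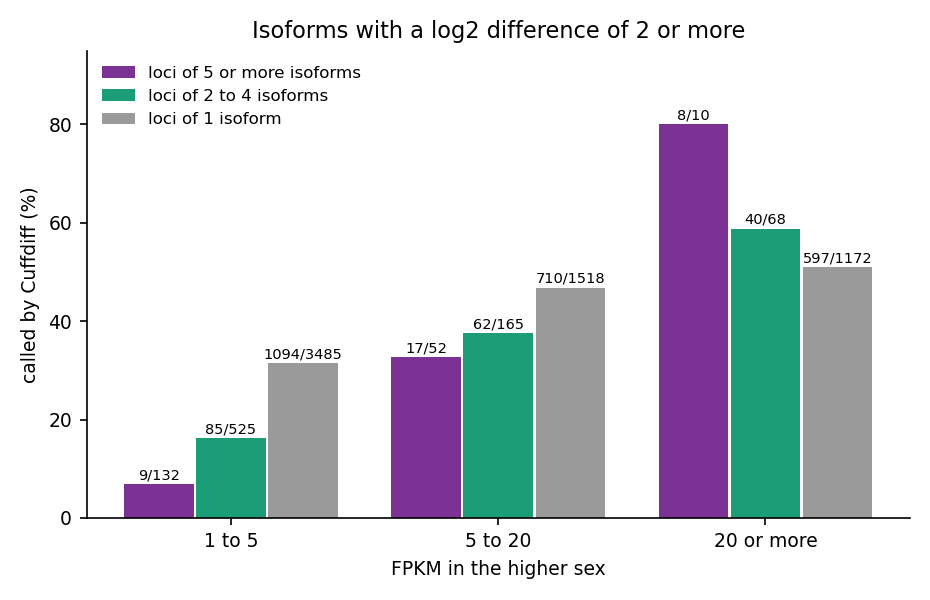
Share of isoforms called by Cuffdiff among those tested with an absolute log2 fold change of 2 or more, by FPKM in the higher sex, for isoforms of isoform-rich loci (purple), of loci of 2 to 4 isoforms (green) and of loci of 1 isoform (grey); the numbers give called over tested. At 1 to 5 FPKM the shares were 6.82%, 16.2% and 31.4%.

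Some isoforms were near 0 in a single sex. There were 33 isoforms at 1 FPKM or more in males and under 0.1 FPKM in females, at 30 loci, and 44 with the reverse pattern, at 37 loci. Their median FPKM was 1.92 in males for the first group and 2.18 in females for the second. Cuffdiff called 2 of the 32 it tested in the first group male-biased (6.25%), against 6.07% of all isoforms tested, and 2 of the 44 in the second female-biased (4.55%), against 8.95%. In the edgeR table, 4 of the 25 listed isoforms of the first group were male-biased (16%), against 5.64% of all isoforms, and 8 of the 37 listed isoforms of the second were female-biased (21.6%), against 6.69%. These isoforms were chosen by their difference in FPKM between the same libraries, so that the shares are a description.

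Isoforms of a locus called in opposite directions were found at 2 loci by Cuffdiff and at 25 by edgeR (5.06%), with GENE_0104111 in both lists. At loci of 2 to 4 isoforms edgeR found 19 of 4368 (0.435%) and Cuffdiff 0. A locus with more isoforms offers more pairs, so that these shares are not comparable per pair. GENE_0104111 on Scaffold25, bases 1690525 to 1722987, had CUFF.32228.4 at 0.816 FPKM in males and listed at 0 in females, and CUFF.32228.5 at 2.02 FPKM in males and 7.93 FPKM in females. The authors' deposited Cuffdiff table gave them adjusted p values of 0.00332 and 0.00704. In the authors' deposited edgeR table the log2 fold changes were 2.41 (adjusted p = 0.0163) for CUFF.32228.4 and -1.80 for CUFF.32228.5. The locus had 8.61 FPKM in males and 18.8 FPKM in females and was female-biased by both tools. At GENE_0001074 on Scaffold262, bases 407471 to 432686, CUFF.34284.1 had 0.599 FPKM in males and was listed at 0 in females, and CUFF.34284.10 had 1.61 FPKM in males and 4.36 FPKM in females. The edgeR log2 fold change of CUFF.34284.1 was 0.13 in the authors' deposited table, with no call.

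The 2 tools often ranked different isoforms of a locus highest, by measures that are not alike. Of the 330 isoforms of these loci that edgeR called, 190 (57.6%) were under 1 FPKM in both sexes and 62 (18.8%) were listed at 0 FPKM in both. Over all 2325 isoforms of these loci in the edgeR table the shares were 65.5% and 20.5%, so that the called ones were not lower than the rest. Among the 3553 edgeR-called isoforms of loci of 1 isoform, 33.4% were under 1 FPKM and 3.80% were listed at 0 in both sexes. At 407 measurable loci with at least 2 isoforms in the edgeR table, the isoform with the highest average log2 CPM (read numbers corrected for library size but not for length) led by FPKM in either sex at 112 (27.5%). The average log2 CPM is taken over both sexes, and 418 of the 496 leading isoforms by FPKM stood in the edgeR table. An unlisted leading isoform could not match, and the part of length and of listing in the mismatch was not tested. Both tools called 7 isoforms male-biased and 33 female-biased, and 1 in opposite directions. The share of all isoforms called by both tools is not given here either.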

How the data were processed

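Adult male and female libraries (2 each) were compared through the authors' deposited tables, which hold 1 pooled value per sex, so that no spread, depth or interval per library can be given. Per the file headers, the authors' Cuffdiff tables give FPKM per sex, a log2 fold change and adjusted p-values for loci and isoforms, and the deposited edgeR tables give a log2 fold change, an average log2 CPM and an adjusted p-value. Per the submitters' processing notes TopHat, Cufflinks, Cuffdiff and edgeR were used. Versions and the genome build are not given in the sources used here, and gene coordinates are those of the deposited tables. All the authors' fold changes run male over female. The full gene map comparison of the authors with edgeR was read from the tables that the authors named for Trinity, since they hold, with equal values, each of the 6733 loci and 5867 isoforms in the authors' gene map tables, which list called features.

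Isoforms were assigned to loci by the locus identifier, and isoform FPKM summed to the deposited locus FPKM within 0.1% at 61662 of 61672 loci and at all 494 isoform-rich ones. Shares, leading isoforms, the share difference and the effective number of isoforms were computed per sex with Python 3.11.15, numpy 2.4.6, pandas 2.3.3 and scipy 1.17.1, and tested on simulated data. A locus was measurable at a summed FPKM of 1 or more in both sexes. No new test was run: calls are the authors' at an adjusted p under 0.05, set beside the share called over all features tested. Members and named loci were chosen with earlier results of these data known. Named were the 4 loci of most isoforms, the 5 of highest level, the 6 of largest and 3 of smallest share difference (the smallest among loci at 10 FPKM or more), the 5 with the highest level in the lower sex among those whose leading isoform differs, the 3 strongest called loci in each direction, and those with opposite Cuffdiff isoform calls. Alternatives varied the isoform number, FPKM floor, margin, pseudocount, threshold and tool.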

Additional observations from a re-analysis of the deposited data

How the results depend on the processing

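Of 95 values recomputed under alternatives, 67 stayed within the 95% interval of the reported value and 28 moved beyond it. A reversal was defined only for the log2 ratio of males over females, where 0 were seen. Taking loci on every contig could change nothing, as 0 loci on other contigs have 5 or more isoforms. Nor could the deposited locus level, which matched the isoform sum at all 494 isoform-rich loci. With 4 or more isoforms as the rule, the leading isoform differed at 16.7% of loci, the median share difference was 10.3 points, the median log2 ratio of males over females was -0.48, and the leading share was 75.4% in males and 76.1% in females. With 6 or more, the leading share in males was 65.9% and the median number of isoforms at 1 FPKM was 2 in males. A floor of 5 FPKM gave a share difference of 10.2 points. Isoforms of at least 1 FPKM alone gave 7.71 points and leading shares of 77.5% in males and 74.0% in females. Counting isoforms from 0.1 FPKM gave medians of 3 in males and 3 in females, and from 5 FPKM 0 in males. A margin of 1.5 left 9.51% of loci with a different leading isoform, and a pseudocount of 1 FPKM gave a log2 ratio of -0.48. At an adjusted p under 0.01, 3.55% of isoforms and 14.0% of loci were female-biased. With the threshold kept at 0.05 and calls limited to absolute log2 fold changes of 1 or more, 19.2% of loci were female-biased. By edgeR, 4.47% of isoforms were male-biased and 9.72% female-biased, 8.11% of loci were male-biased, and 5.06% held opposite isoform calls. In the set of 3 methods, taken over the features Cuffdiff tested, 0.263% of isoforms were male-biased and 0.592% female-biased, 1.65% of loci were male-biased and 4.55% female-biased, and 0 held opposite calls. The cause of these shifts was not tested. Leaving out the 2 loci that Cuffdiff marked as failed, an alternative chosen after seeing the data, gave 20.8% of loci with a different leading isoform and a share difference of 12.7 points.

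No paired analysis was possible because the tables hold 1 pooled value per sex, and leaving out each library could not be run for the same reason. Isoform levels are model estimates with unknown depth, so that a difference in shares at low FPKM cannot be told apart from estimation error.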

Other observations

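The 25 isoform-rich loci with opposite isoform calls by edgeR were called as loci by edgeR in 14 cases. Over all loci edgeR called 18.0%, and of the isoform-rich loci it called 8.11% male-biased and 24.1% female-biased. The 25 were chosen by edgeR calls in the same libraries, so that the count is a description. At 8 of the 25 the leading isoform by FPKM differed between males and females at measurable level, against 86 of all 410 measurable isoform-rich loci (21.0%). Of the 496 leading isoforms of measurable loci, 418 stood in the edgeR table.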
